A study of Homo sapiens with 6 samples.

Results

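Secreted cytokines were described in H1155 cells through 10 genes, CSF1, IL34, LIF, IL6, IL11, CXCL8, CXCL12, CCL2, CCL7 and CCL11, which were picked by gene name from the 58735 genes of the deposited count table. Each name matched 1 row. The genes were named when fold changes between the groups of these libraries were already known, so their values are given as a description, without a test.

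H1155 is an established line of neuroendocrine large cell lung cancer whose parental cells grow as floating clusters. The paper reports that these cells turned into attached single cells after GFI1 deletion, so growth state cannot be told apart from genotype here. RNA-Seq libraries were made from untreated cells, 3 labelled WT and 3 labelled GFI1-KO, all cultured in DMEM with serum. The GFI1-KO cells had been transfected with Cas9 and pairs of sgRNAs to the GFI1 promoter region and sorted as monoclonal GFP+ clones, whereas WT is the parental genotype. The sources do not say how many clones gave the GFI1-KO libraries, nor whether the 3 libraries of a group came from separate cultures, so p-values measure only the spread between these libraries, which may be technical, and the genotype cannot be told apart from differences between a clone and the parental cells. In a bulk library, fewer cells that make an RNA and less of it per cell cannot be told apart either.

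Counts per library summed to between 14882914 and 17692882, and 3 counts, taken as the floor, were equal to between 0.17 and 0.202 CPM, the count scaled to a common library total. GFI1 had between 106 and 153 counts in WT and between 170 and 188 in GFI1-KO. Its RNA was thus not lower in the libraries labelled as knockout. The edit was aimed at the GFI1 promoter, where RNA synthesis starts, so lower RNA was looked for and was not seen. The paper documents the deletion by an immunoblot of GFI1 protein, which RNA counts do not measure. The reason for this mismatch was not tested. In these counts, each direction rests on the labels. Across all genes, 72.4% of the 17514 tested differed between the groups (quasi-likelihood test of edgeR, Benjamini-Hochberg adjusted p up to 0.05), 36.5% being higher and 35.9% lower in GFI1-KO. Fold changes followed GC content across genes, with a median log2 ratio of GFI1-KO over WT of -0.55 for genes under 40% GC and of 0.69 for genes of 60% GC or more. Estimates corrected for GC content and for gene length are therefore given for the 8 tested cytokine genes, and for others where the correction moved the log2 ratio by more than 1.5 times, ended a call or turned the sign. For GFI1 it moved the log2 ratio from 0.31 (adjusted p = 0.0273, edgeR) to -0.01 (adjusted p = 0.971). Of 10 markers of macrophages and other leukocytes, none passed the filter on low counts, and their summed normalized count (counts scaled to equal library size) lay between 6.14 and 14.4 in WT and between 13.2 and 14.2 in GFI1-KO, with PTPRC at 0 in 5 of 6 libraries. The 11 neuroendocrine markers all passed the filter, 7 with a higher and 4 with a lower call in GFI1-KO, and their log2 ratios ran from -10.5 to 1.21, so at least 1 of them was nearly absent in GFI1-KO.

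Cytokines are small secreted proteins through which cells instruct their neighbours. CSF1 and IL34 are unrelated ligands of the receptor CSF1R, which keeps macrophages alive and growing. LIF, IL6 and IL11 bind receptor pairs that share the chain gp130, encoded by IL6ST, and signal through JAK kinases and STAT3. Chemokines steer migrating leukocytes by way of G protein-coupled receptors, CXCL8 drawing neutrophils, CCL2 and CCL7 monocytes, CCL11 eosinophils, and CXCL12 retaining CXCR4-bearing cells in niches. Tumor cells of the lung are known to secrete several of these factors, whose genes in many cell types are switched on by NF-kB, AP-1 and CEBP proteins.

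The 10 genes spanned a wide range of levels. On the FPKM scale, which divides counts by gene length and library total and allows genes to be compared, CCL2 and CXCL8 were the highest, with 182 ± 18.9 and 125 ± 7.38 FPKM in WT (mean ± SD, n = 3). Both exceeded at least 99% of protein-coding genes in either group. CCL7 followed with 26.0 ± 2.39 FPKM, then CSF1 with 9.58 ± 0.531 and LIF with 3.57 ± 0.301. IL11 stood at 1.5 ± 0.114 FPKM, CCL11 at 0.975 ± 0.0736 and CXCL12 at 0.638 ± 0.0175. IL34 and IL6 were at the bottom, near the count floor. In GFI1-KO the order was CXCL8, CCL2, CSF1, LIF, CCL7 and IL11, with 339 ± 1.63, 171 ± 5.90, 59.7 ± 0.594, 30.1 ± 1.70, 16.3 ± 0.865 and 3.14 ± 0.220 FPKM respectively (mean ± SD, n = 3). No neighbours among these first 6 overlapped in their ranges over the libraries of a group. The remaining IL6, CCL11, CXCL12 and IL34 were each under 0.4 FPKM in every GFI1-KO library, and IL6 and CCL11 overlapped there, as did CXCL12 and IL34.

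CCL2 made up between 47.8% and 54.7% of the summed FPKM of the 10 genes in the WT libraries and between 27.1% and 28.2% in the GFI1-KO libraries. CXCL8 made up between 32.8% and 39.5% in WT and between 53.9% and 55.3% in GFI1-KO. The sum itself lay between 335 and 360 FPKM in WT and between 615 and 630 in GFI1-KO.

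**Figure D1:**
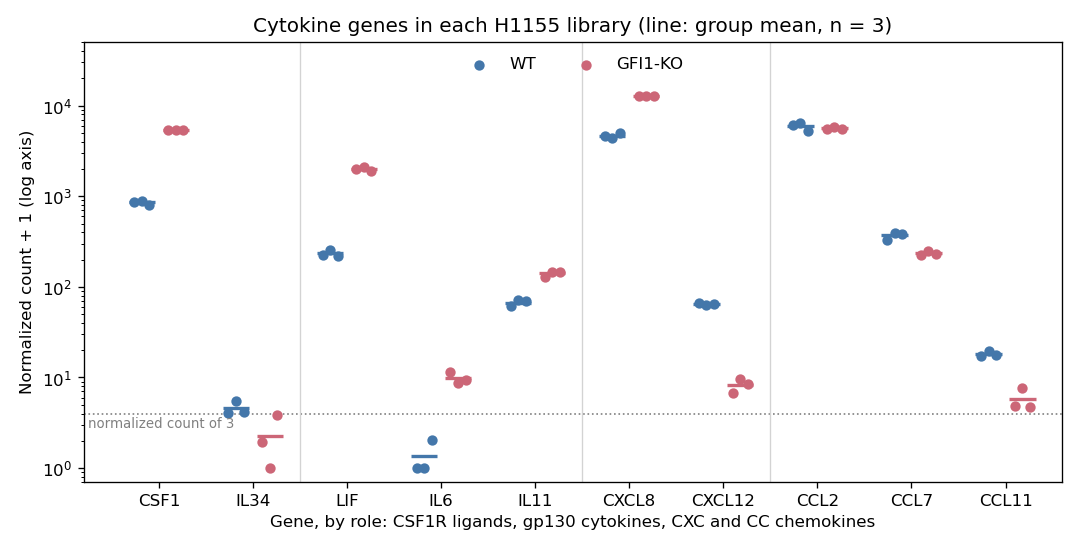
Normalized count plus 1 on a log axis for each of the 10 cytokine genes, with 1 point per library, blue for WT and red for GFI1-KO, and a line at the mean of each group of 3. CSF1, LIF, IL11, CXCL8 and IL6 sit higher in the GFI1-KO libraries, CXCL12, CCL7 and CCL11 sit lower, CCL2 overlaps, and IL34 lies around the dotted line at a normalized count of 3.

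The low-count filter of edgeR kept 8 of the 10 genes, all but IL34 and IL6. Of these 8, 4 were called higher and 3 lower in GFI1-KO, against a background of 36.5% and 35.9% of all tested genes. WT and GFI1-KO were separate without overlap in normalized count for 7 of the 8, as were 74.4% of all tested genes. CXCL12 and CCL11 had fewer than 10 counts in every GFI1-KO library and so passed the filter through WT alone. The fold changes of these genes were known when they were chosen, and nothing is read from these counts.

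CSF1 (ENSG00000184371, plus strand of chromosome 1 from 109910242 to 109930992, GRCh38, with 9 exons in its canonical GENCODE 44 transcript) was the main CSF1R ligand in both groups. It had 850, 807 and 764 counts in the WT libraries and 5615, 5675 and 5787 in the GFI1-KO libraries. Every GFI1-KO library was far above every WT library, and the libraries of each group lay close together. Its normalized count was 855 ± 47.6 in WT and 5392 ± 49.3 in GFI1-KO (mean ± SD, n = 3), 6.30-fold higher, with a log2 ratio of 2.66 (standard error, SE, 0.04). A larger change in either direction was found for 2.15% of tested genes, a description only, since CSF1 was named with fold changes known. On FPKM, CSF1 moved from above 73.6% of protein-coding genes in WT to above 97.0% in GFI1-KO. With a GC content of 57.8%, CSF1 belongs to a class, from 55% to under 60%, whose median log2 ratio was 0.46, and with the GC and length correction its own was 2.27.

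IL34 (chromosome 16, 70579895 to 70660682), the alternative CSF1R ligand, had 3, 4 and 3 counts in WT and 1, 0 and 3 in GFI1-KO. These counts are at or around the floor. The 95% Poisson interval of the highest WT count, 1.09 to 10.2, includes the GFI1-KO count of 3 but not those of 0 and 1. The ratio of summed counts, scaled to library size, was 0.358 of GFI1-KO over WT, with an exact 95% interval from 0.0819 to 1.24 that covers counting error only. A difference was not detectable at this depth.

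Among the gp130 cytokines, LIF, a factor known for holding stem cells undifferentiated and for acting on neurons and muscle, had the highest level in both groups. LIF (minus strand of chromosome 22 from 30240447 to 30246851) had 221, 231 and 208 counts in WT and 2084, 2224 and 1999 in GFI1-KO. The groups were separated by a wide gap. The normalized count was 233 ± 19.7 in WT and 1992 ± 113 in GFI1-KO (mean ± SD, n = 3), 8.53-fold higher, with a log2 ratio of 3.09 (SE 0.06), or 2.65 with the GC and length correction. The RNAs LIF-AS1 and AC004264.1 overlap LIF on the opposite strand, and the strand setting of the counting is not stated, so reads of the partners cannot be told apart. Their own counts were small beside those of LIF, at most 3 for LIF-AS1 and between 23 and 40 for AC004264.1 in GFI1-KO.

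CSF1 and LIF were both higher in GFI1-KO, LIF by more. The ratio of CSF1 to LIF in FPKM was between 2.56 and 2.82 in the WT libraries and between 1.87 and 2.12 in the GFI1-KO libraries.

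IL11 (minus strand of chromosome 19 from 55364389 to 55370463), a cytokine of bone turnover and fibrosis, had 59, 63 and 65 counts in WT and 135, 154 and 154 in GFI1-KO. The GFI1-KO libraries were all higher. The normalized counts, 66.1 ± 5.01 and 140 ± 9.71 (mean ± SD, n = 3), gave a log2 ratio of 1.08 (SE 0.15). IL11 is the GC-richest of the tested genes among the 10, at 60.6%, and with the GC and length correction its log2 ratio was 0.45.

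IL6 (plus strand of chromosome 7 from 22725884 to 22732002), the founding member of the family and a driver of the acute-phase response, had 0, 0 and 1 counts in WT and 11, 8 and 9 in GFI1-KO. WT was below the floor in each library, whereas each GFI1-KO library was above it. The scaled ratio of the summed counts, 1 against 28, was 25.0, with an exact 95% interval from 4.14 to 1020. The gene STEAP1B overlaps IL6 on the opposite strand with between 12 and 16 counts in WT and between 4 and 8 in GFI1-KO, as does AC073072.1 with at most 2 counts, and their reads cannot be told apart from those of IL6 without strand. IL6 remained below LIF and IL11 in GFI1-KO, with 0.256 ± 0.0429 FPKM (mean ± SD, n = 3).

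CXCL8 (plus strand of chromosome 4 from 73740506 to 73743716) had 4533, 3986 and 4727 counts in WT and 13544, 13581 and 13566 in GFI1-KO. The GFI1-KO libraries were nearly equal to each other and all above the WT libraries. The normalized count was 4672 ± 276 in WT and 12848 ± 71.9 in GFI1-KO (mean ± SD, n = 3), 2.75-fold higher, with a log2 ratio of 1.46 (SE 0.04). CXCL8 has the lowest GC content of the 10 genes, 34.1%, and its log2 ratio with the GC and length correction was 2.13. In the FPKM order, CXCL8 was below CCL2 in each WT library, at between 0.598 and 0.826 of its level, and above it in each GFI1-KO library, at between 1.91 and 2.04 times its level.

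CXCL12 (minus strand of chromosome 10 from 44370165 to 44386493) went the other way. It had 64, 56 and 61 counts in WT and 6, 9 and 8 in GFI1-KO. The groups did not overlap, and the GFI1-KO counts were a few counts above the floor, with 95% Poisson intervals that together ran from 2.2 to 17.1 counts. The normalized count was 63.8 ± 1.78 in WT and 7.26 ± 1.43 in GFI1-KO (mean ± SD, n = 3), 8.80-fold lower, with a log2 ratio of -3.12 (SE 0.29) and of -3.10 with the GC and length correction. CXCL12 is also a product of fibroblasts and endothelial cells. Genes used as markers of these cell types were examined in this cell line. The summed normalized count of 10 fibroblast markers lay between 3143 and 3232 in WT and between 2238 and 2315 in GFI1-KO. Of these, 5 were tested, with 3 called lower and 2 higher. The 2 higher ones had fewer than 10 counts in every WT library and passed the filter through GFI1-KO alone. The summed normalized count of 6 endothelial markers lay between 456 and 512 in WT and between 282 and 291 in GFI1-KO, with 3 tested, 1 called higher and 1 lower. Among all tested genes, 36.5% were higher and 35.9% lower, and nothing is read from calls of so few markers. Since the libraries were made from a cell line, these values are not read as the presence of either cell type. A link between the marker genes and the lower CXCL12 was not tested.

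CCL2, CCL7 and CCL11 are neighbours on the plus strand of chromosome 17, in this order, from 34255218 to 34288334, with 13017 bases between CCL2 and CCL7 and 13425 between CCL7 and CCL11. None of their 50-base words occurs in the transcripts of another gene, so that the close relatives do not share such words. CCL2 had 5991, 5817 and 5001 counts in WT and 5791, 6208 and 5936 in GFI1-KO. The normalized counts of the groups, 5941 ± 618 and 5663 ± 194 (mean ± SD, n = 3), overlapped, and the log2 ratio was -0.07 (SE 0.05). The third WT library, at 5249, was the lowest of the 6 on that scale, and the overlap rested on it. The other WT libraries, at 6134 and 6439, were above every GFI1-KO library, which lay between 5518 and 5883. The log2 ratio was -0.16 without the third WT library, -0.11 with upper-quartile factors and 0.10 with the GC and length correction.

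CCL7 had 323, 356 and 365 counts in WT and 234, 261 and 246 in GFI1-KO. All WT libraries were higher. The normalized counts were 369 ± 33.9 and 234 ± 12.4 (mean ± SD, n = 3), 1.58-fold lower in GFI1-KO, with a log2 ratio of -0.66 (SE 0.09), or -0.33 with the GC and length correction.

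CCL11 had 16, 17 and 16 counts in WT and 4, 7 and 4 in GFI1-KO. The groups did not overlap, although the GFI1-KO counts were at most 4 above the floor. The normalized counts, 17.3 ± 1.30 and 4.74 ± 1.64 (mean ± SD, n = 3), gave a log2 ratio of -1.84 (SE 0.43). With any single library left out it lay between -2.15 and -1.70, the widest such range among the 8 tested genes, and with the GC and length correction it was -1.70.

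The ratio of CCL7 to CCL2 in FPKM was between 0.124 and 0.168 in the WT libraries and between 0.0930 and 0.0968 in the GFI1-KO libraries, and these ranges did not overlap. Of the genes around this cluster, CCL8, CCL13 and CCL1 had between 0 and 5 counts in every library, and TMEM132E between 4 and 19, while ASIC2 and C17orf102 had none. None of these 6 neighbours passed the filter on low counts.

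**Figure D2:**
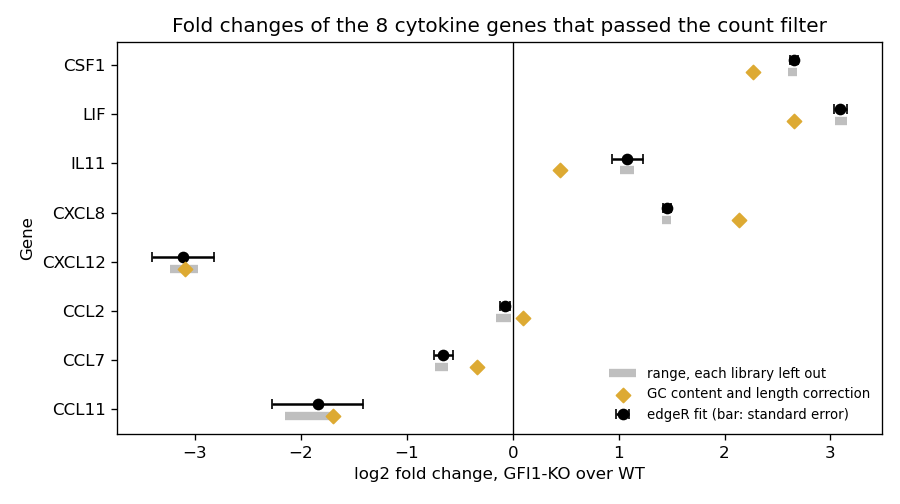
The log2 ratio of GFI1-KO over WT for the 8 tested cytokine genes, with the edgeR estimate and its standard error in black, the range over fits that each leave out 1 library in grey, and the estimate corrected for GC content and length as a yellow diamond. The diamond moves CXCL8 from 1.46 to 2.13 and IL11 from 1.08 to 0.45, crosses 0 for CCL2 and leaves CXCL12 near -3.1.

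Promoter sequences are shown for 4 of these genes to set their base composition and regulatory words beside the values above. RefSeq's table for GRCh38.p14 matched 5 of the 10 genes by symbol, IL6, IL11, CXCL8, CXCL12 and CCL7. CSF1, IL34, LIF, CCL2 and CCL11 were not matched. The 160 bases before the RefSeq start of each gene, which for CXCL8 and IL6 lies inside the span that the count table gives, are given 5′ to 3′ on its strand, with matches to searched words in capitals, at chr4:73740409-73740568 (plus) for CXCL8, chr7:22727040-22727199 (plus) for IL6, chr19:55370464-55370623 (minus) for IL11 and chr17:34270061-34270220 (plus) for CCL7.
CXCL8: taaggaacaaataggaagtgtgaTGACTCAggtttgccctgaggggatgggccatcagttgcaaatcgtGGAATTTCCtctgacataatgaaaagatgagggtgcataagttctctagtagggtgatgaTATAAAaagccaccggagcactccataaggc
IL6: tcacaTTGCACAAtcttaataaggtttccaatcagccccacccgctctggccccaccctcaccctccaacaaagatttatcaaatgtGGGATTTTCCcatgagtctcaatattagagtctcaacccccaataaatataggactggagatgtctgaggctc
IL11: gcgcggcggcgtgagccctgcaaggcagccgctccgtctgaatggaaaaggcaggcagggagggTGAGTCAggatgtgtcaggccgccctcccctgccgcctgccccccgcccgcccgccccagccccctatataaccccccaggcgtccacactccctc
CCL7: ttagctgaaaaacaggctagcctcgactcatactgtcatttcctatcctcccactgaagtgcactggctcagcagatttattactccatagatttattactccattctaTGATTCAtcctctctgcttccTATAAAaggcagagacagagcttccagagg

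The words were searched on both strands. The AP-1 word TGANTCA, held by 4.41% of all 35116 windows of the same length, was found in CXCL8, IL11 and CCL7. The NF-kB word GGNNTTTCC, held by 3.68% of windows, was found in CXCL8, starting 91 bases before the start, and in IL6, 72 bases before it. The GFI1 word AAATCNC, held by 6.04% of windows, was found on the minus strand of IL6, where it overlaps the NF-kB word. The CEBP word TTNNGNAA (21.4% of windows) was found in IL6 and the TATA word TATAAA (7.04%) in CXCL8 and CCL7. The CRE word TGACGTCA (1.44%) was found in none of the 5 windows. The window of CXCL12, whose RefSeq start also lies inside its counted span, held no match to any of these words. It had a GC content of 80.6% and 22 CpG, against medians of 59.4% and 7 over all windows, and the window of IL11 was also above them, with 71.9% and 12 CpG, whereas CXCL8 had 2 CpG and IL6 and CCL7 had 1 each. The AP-1 word stood before genes that were higher in GFI1-KO, CXCL8 and IL11, and before CCL7, which was lower.

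The receptors of the 10 cytokines were examined next, from a list of 17 genes. Of these, 7 passed the filter on low counts. SDC1, IL6R and IL11RA were higher in GFI1-KO, IL6ST, LIFR and CXCR4 were lower, and ACKR1 was not called (edgeR). These calls, 3 higher and 3 lower, stood beside 36.5% and 35.9% of all tested genes, and nothing is read from their number. The median log2 ratio of the 7 was -0.51, against 0.00 over all tested genes, and with the GC and length correction it was 0.17, so its sign depended on the correction. CXCR1, ACKR3, CCR1, CCR2 and CCR3 had no count in any library, which allows up to 0.202 CPM by the floor of 3 counts, and CXCR2 had 2 counts in 1 GFI1-KO library only. CSF1R, the receptor of CSF1 and IL34, had between 5 and 14 counts in WT and between 2 and 10 in GFI1-KO. The cells thus held abundant RNA for CXCL8 and CCL2 in both groups and for CSF1 in GFI1-KO, with CSF1 at 9.58 FPKM in WT. RNA for the main receptors of these ligands was at most a trace.

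CXCR4, the receptor of CXCL12, had the largest decrease among the receptors. It had 1191, 1126 and 1199 counts in WT and 236, 262 and 303 in GFI1-KO, with all WT libraries higher. The normalized count fell from 1241 ± 20 to 253 ± 30.4 (mean ± SD, n = 3), a log2 ratio of -2.29 (SE 0.07, adjusted p = 3.0e-20, edgeR). The ligand CXCL12 and CXCR4 were thus both lower in GFI1-KO, at 0.0717 ± 0.0141 and 6.82 ± 0.826 FPKM against 0.638 ± 0.0175 and 33.9 ± 0.562 in WT (mean ± SD, n = 3). The scavenger receptor ACKR3, which also binds CXCL12, had no count.

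Receptor chains of the gp130 family changed in both directions. IL6R, the IL6-binding chain, rose from 24.7 ± 9.71 to 114 ± 4.98 normalized counts (mean ± SD, n = 3), a log2 ratio of 2.20 (SE 0.22, adjusted p = 1.2e-09, edgeR). LIFR, the LIF-binding chain, fell from 2215 ± 12.8 to 1204 ± 78.6 normalized counts (mean ± SD, n = 3), a log2 ratio of -0.88 (SE 0.04, adjusted p = 1.8e-15, edgeR), or -0.21 with the GC and length correction. IL6ST, which encodes gp130, had 5155 ± 151 and 3618 ± 107 normalized counts (mean ± SD, n = 3). Its log2 ratio was -0.51 (SE 0.03, adjusted p = 6.3e-13, edgeR), but 0.21 with the GC and length correction (adjusted p = 3.5e-06, edgeR), so its direction depended on the correction. IL6ST, at 36.6%, and LIFR, at 38.1%, are both of low GC content.

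IL11RA, the IL11-binding chain, had 143 ± 24.0 and 227 ± 21.5 normalized counts (mean ± SD, n = 3). Its log2 ratio was 0.67 (adjusted p = 1.9e-05, edgeR) and 0.17 with the GC and length correction (adjusted p = 0.215), and 27.9% of its 50-base words are shared with other genes, so its counts are uncertain. SDC1, a syndecan that also binds IL34, rose from 733 ± 16.5 to 1672 ± 54.5 normalized counts (mean ± SD, n = 3), a log2 ratio of 1.19 (adjusted p = 1.7e-17, edgeR), or 0.60 when corrected. ACKR1, a chemokine scavenger, had 19.3 ± 6.35 and 12.3 ± 1.97 normalized counts (mean ± SD, n = 3) and a log2 ratio of -0.65 (adjusted p = 0.107, edgeR), which was -1.14 with the correction (adjusted p = 0.00785). ACKR1 overlaps CADM3 on the same strand and CADM3-AS1 on the opposite strand. How reads of the overlap were assigned is not stated, so its low counts are uncertain.

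**Figure D3:**
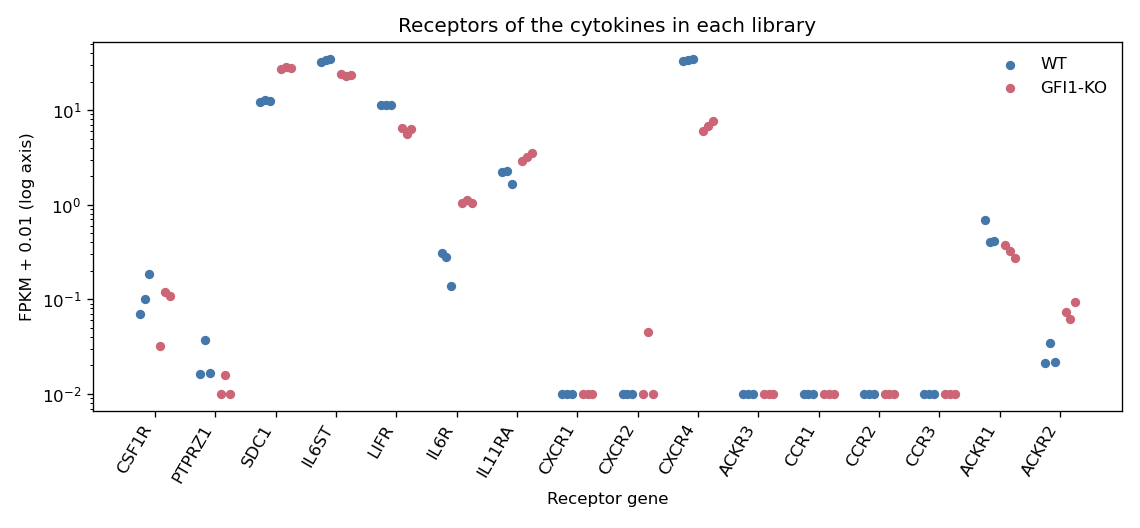
FPKM plus 0.01 on a log axis for 16 of the receptor genes, with 1 point per library, blue for WT and red for GFI1-KO. Points at the lower edge are libraries with no count, as for CXCR1, ACKR3, CCR1, CCR2 and CCR3, CXCR4 lies near 34 in WT and near 7 in GFI1-KO, and CSF1R lies under 0.2 in every library.

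Other cytokines were taken from lists written with earlier results of these data known. Of 39 other chemokine genes, 10 passed the filter, and all 10 of these rose in GFI1-KO, where 36.5% of all tested genes were higher. Their median log2 ratio was 1.35. CCL20 had 23, 17 and 13 counts in WT and 160, 192 and 169 in GFI1-KO, a log2 ratio of 3.13 (SE 0.19, adjusted p = 9.6e-14, edgeR). It was followed by CX3CL1 (2.08), the neutrophil attractant CXCL1 (1.80) and its relative CXCL3 (1.44), of which CXCL1 had 339 ± 10.3 and 1181 ± 65.0 normalized counts (mean ± SD, n = 3). The other 29 had at most 8 counts in any library, and 17 of them had none. With the GC and length correction 9 of the 10 were higher and none was lower, against 33.2% and 27.2% of all tested genes, and the median was 1.66. Among the 10 cytokine genes, described without a test, CXCL8 was also higher, CXCL12, CCL7 and CCL11 were lower, and CCL2 overlapped. The other chemokines that rose included both CXC genes and the CC gene CCL20, so no grouping is read from these values.

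Of 10 other genes of the gp130 family, 7 were tested, of which 6 rose and none fell, beside 36.5% higher and 35.9% lower among all tested genes. They included the ligand CLCF1 (log2 ratio 1.95, adjusted p = 3.1e-10, edgeR), its receptor chain CNTFR (0.80) and the IL27 receptor chain IL27RA (1.44). Corrected values were 0.11 for CNTFR and 0.94 for IL27RA. With the correction 5 were higher and none lower, beside 33.2% and 27.2% of all tested genes, with a median of 0.42 in place of 0.80. Among 6 colony-stimulating and other growth cytokines, CSF2, which encodes GM-CSF, had 74, 44 and 74 counts in WT and 358, 416 and 401 in GFI1-KO, a log2 ratio of 2.45 (SE 0.13, adjusted p = 2.2e-15, edgeR). CSF3 had at most 1 count. KITLG, the ligand of KIT, fell with a log2 ratio of -1.25 (adjusted p = 6.5e-14, edgeR), or -0.55 when corrected. CSF1 and CSF2 were hence both higher in GFI1-KO, CSF2 at 28.3 ± 2.09 FPKM against 59.7 ± 0.594 FPKM of CSF1 (mean ± SD, n = 3).

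Of 46 other interleukin and TNF-type genes, 11 were tested, with 5 higher, 3 lower and 3 not called, near the 36.5% and 35.9% of all tested genes. Of the 11, 2 had fewer than 10 counts in every WT library and 1 in every GFI1-KO library. Such genes passed the filter through the other group alone. They are among the calls, and nothing is read from their calls. With the GC and length correction 2 of the 11 were higher and 3 lower, where all tested genes gave 33.2% and 27.2%. TSLP, an epithelial alarmin, had 2, 6 and 6 counts in WT and 40, 33 and 48 in GFI1-KO. It passed the filter through GFI1-KO alone, and its counts are given as a description. IL15 rose with a log2 ratio of 0.90 (adjusted p = 1.7e-06, edgeR), or 1.5 when corrected. IL7 fell by 0.65 on the log2 scale (adjusted p = 0.00143, edgeR), a call that was lost with the correction (-0.15, adjusted p = 0.46). TNFSF13 rose with a log2 ratio of 0.56 (adjusted p = 0.0194, edgeR). It had no call with the correction (0.09, adjusted p = 0.741), with DESeq2 or without the third WT library (0.43, adjusted p = 0.0964) or the second GFI1-KO library (0.49, adjusted p = 0.078), and 48.5% of its 50-base words occur in other genes.

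Regulators of cytokine transcription were examined in the same way. Of 25 genes for NF-kB, AP-1 and CEBP proteins and their inhibitors, all 25 were tested, and 20 were called higher, 4 lower and 1 was not called, beside 36.5% higher and 35.9% lower among all tested genes, with a median log2 ratio of 0.67. Of the 25, 2 had fewer than 10 counts in every WT library and passed the filter through GFI1-KO alone. JUN and JUNB, subunits of AP-1, had log2 ratios of 1.83 (adjusted p = 7.7e-19, edgeR) and 1.46 (adjusted p = 8.1e-21), the normalized count of JUN being 279 ± 11.2 in WT and 993 ± 23.8 in GFI1-KO (mean ± SD, n = 3). Among these was FOSL1, a further AP-1 subunit, with 7.07 ± 3.40 normalized counts in WT and 38.5 ± 5.0 in GFI1-KO (mean ± SD, n = 3), given as a description. CEBPD, which activates acute-phase genes, had a log2 ratio of 1.54 (adjusted p = 3.2e-16, edgeR). The correction gave 1.37 for JUN, 0.66 for JUNB and 0.71 for CEBPD, and 17 higher and 3 lower genes on the list with a median of 0.43, beside 33.2% and 27.2% of all tested genes. The number of lower genes was 2 without the third GFI1-KO library.

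Of 25 genes for JAK-STAT signalling and its feedback, 23 were tested, with 9 higher, 10 lower and 4 not called, near the 36.5% and 35.9% of all tested genes. With the correction 9 were higher and 2 lower, where lower calls among all tested genes also became fewer, 27.2%, with 33.2% higher. SOCS3, the feedback inhibitor of gp130 signalling, rose from 339 ± 26.6 to 723 ± 22.4 normalized counts (mean ± SD, n = 3), a log2 ratio of 1.09 (SE 0.07, adjusted p = 1.5e-13, edgeR), or 0.41 when corrected. STAT6, a STAT of the IL4 pathway, had a log2 ratio of 1.90 (adjusted p = 1.8e-11, edgeR), PIAS4 of 1.10 (adjusted p = 1.2e-13) and TYK2 of 0.74 (adjusted p = 3.4e-14), with 0.48 and 0.22 for PIAS4 and TYK2 when corrected.

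All 15 genes listed as regulators of cytokine mRNA decay were tested, with 7 higher and 8 lower, beside 36.5% and 35.9% of all tested genes. With the correction 7 were higher and 3 lower, beside 33.2% and 27.2%. ZFP36, whose protein binds AU-rich elements of cytokine mRNAs and speeds their decay, had 83, 65 and 55 counts in WT and 330, 387 and 414 in GFI1-KO, a log2 ratio of 2.32 (SE 0.13, adjusted p = 6.3e-15, edgeR). Its relative ZFP36L1 had 2, 0 and 2 counts in WT and 45, 51 and 42 in GFI1-KO. WT was below the floor, the gene passed the filter through GFI1-KO alone, and these counts are a description. ZC3H12A, an RNase that cleaves IL6 mRNA, rose with a log2 ratio of 1.42 (adjusted p = 9.2e-16, edgeR), or 0.78 when corrected, whereas ZC3H12B fell by 0.80 on the log2 scale (adjusted p = 7.5e-09).

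**Figure D4:**
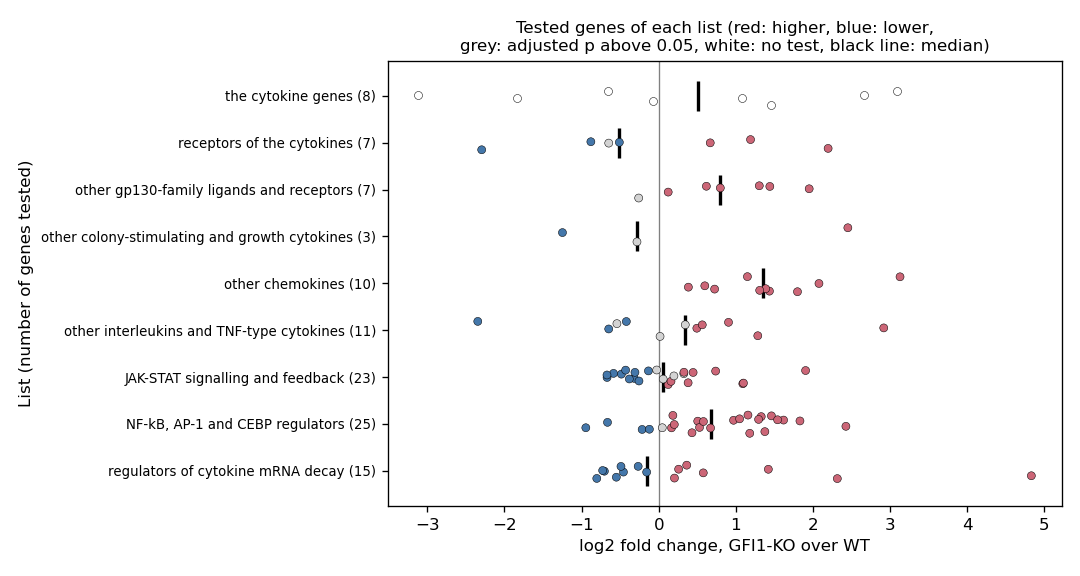
The log2 ratio of GFI1-KO over WT for each tested gene of the lists, with red for genes called higher, blue for genes called lower, grey for genes with an adjusted p above 0.05, white for the cytokine genes themselves, for which no test is given, and a black line at the median. The 10 other chemokines all lie above 0, with a median of 1.35, whereas the cytokine genes run from -3.12 to 3.09 and the receptors from -2.29 to 2.20.

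The genes whose pattern over the 6 libraries was nearest to that of CSF1 were sought over 12108 protein-coding genes that averaged 50 counts or more, by the root mean square difference of centred log2 normalized counts, and the measure is a description. HIST1H2AC (difference 0.0589), a histone gene, SLC25A18, a mitochondrial carrier, and S100A6, a calcium-binding protein, were the nearest, with log2 ratios of 2.62, 2.74 and 2.50. The libraries form 2 groups, so this measure mainly compares the difference between the groups.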

How the data were processed

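RNA from H1155 cells was sequenced in 3 WT and 3 GFI1-KO libraries, and the authors deposited raw counts per gene. The paper's methods give poly-T selection, NovaSeq sequencing, Hisat2 alignment to hg38 and featureCounts, whereas the submitters' processing notes list Bowtie2 and HTSeq. The annotation release, strand setting and treatment of multi-mapping reads are not given in the sources used here, and these can move counts of overlapping or duplicated genes.

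Counts were scaled by TMM and tested with edgeR 4.0.16 (filterByExpr, quasi-likelihood F test, Benjamini-Hochberg adjustment over 17514 genes, threshold 0.05) in R 4.3.3, without pairing. FPKM used the deposited gene length and the library total. GC and length offsets came from natural splines of 5 degrees of freedom per library. Intervals and floors cover counting error only. DESeq2 1.42.0, limma-voom 3.58.1, other factors and filters, a replicate block, each library left out in turn and a threshold of 0.01 were alternatives. Steps were tested on simulated data.

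The 10 genes and all lists were chosen with earlier results of these data known. Named genes are the 10, GFI1, their tested receptors, up to 4 of each other list with the largest called and non-overlapping changes and a mean of at least 20 counts, the neighbours on chromosome 17 and the 3 genes nearest to CSF1. PTPRC, CSF3 and the untested receptors were named after their values were seen. Some genes of the lists are not reported here by name. The other deposited libraries were not used here.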

Additional observations from a re-analysis of the deposited data

How the results depend on the processing

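Counts near the floor limit IL34 and IL6, and CXCL12 and CCL11 rest on fewer than 10 counts in each GFI1-KO library. With at least 10 counts required in every library, 1 of the 10 cytokine genes was called lower in place of 3, since CXCL12 and CCL11 were no longer tested. For the 8 tested cytokine genes, no alternative turned the direction of CSF1, LIF, IL11, CXCL8, CXCL12, CCL7 or CCL11. CCL2 had a log2 ratio of -0.16 without WT replicate 3 and of -0.11 with upper-quartile factors. It was 0.10 with the GC and length correction together with the replicate block, so its sign depended on the setting.

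Fewer or more genes tested moved the higher calls among other interleukins and TNF-type cytokines from 5 to 9 without a filter and to 3 with at least 10 counts in every library. The GC and length correction, alone and with the replicate block, gave 2 such higher calls, 2 lower calls in place of 1 among colony-stimulating cytokines, 2 in place of 10 for JAK-STAT genes and 3 in place of 8 for mRNA decay regulators. It turned the log2 ratio of IL6ST to 0.211 (0.2113 with the block) and that of GFI1 to -0.005764 (-0.0005945 with the block). With the block, the log2 ratio of CCL2 was 0.1042. Lower calls among NF-kB, AP-1 and CEBP regulators ranged from 2 to 4 with 1 library left out, the 2 being without GFI1-KO replicate 3. The cause was not tested.

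With the replicate number as a block, 6359 genes were called higher and 6214 lower, against 6395 and 6285 without it. Deviations of same-numbered libraries correlated by -0.00355, 0.0166 and 0.0235 over genes, so the numbers were not taken as pairs.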
